A study of Homo sapiens with 6 samples.

Results

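The genes described here encode the subunits of the 3 nuclear RNA polymerases and the general transcription factors that place them on promoters. They were chosen by name: every row whose gene name begins with POLR1, POLR2, POLR3, GTF2, GTF3 or TAF followed by a digit, and holds no hyphen. The rule found 86 of the 17721 gene identifiers in the 2 deposited tables, under 85 gene names, because POLR2J4 has 2 identifiers. RefSeq calls 76 of the 86 protein-coding and 10 pseudogenes. Of the 86, 84 were in both tables and 2, the pseudogenes GTF2IRD2P1 and POLR3DP1, were in the second table only.

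The cells were labelled U2OS, an established human osteosarcoma line. The labels describe 6 RNA samples: 1 input from control cells (shNC, genotype WT), 1 input from shDNMT1 cells, in which the DNA methyltransferase DNMT1 was knocked down by a short hairpin, and 2 co-immunoprecipitates from each. Per the labels' protocols, cells of both kinds carried a transfected plasmid for a mutant of NSun2, an RNA cytosine methyltransferase, and the precipitated RNA was recovered with that mutant. Whether the knockdown line was 1 clone was not stated in these sources. Neither table names a sample, a condition, or input against precipitate. Here they are named first and second by the numbering of the deposited tables alone, and no comparison of knockdown with control or of precipitate with input was made. DNMT1 itself had 23.3 FPKM in one table, the first, and 9.36 FPKM in the other, which assigns neither to a group. Each gene had 1 FPKM value per table (fragments scaled by transcript length and by the library total), with no replicate, no error and no test, and the depth of either table is unknown.

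Markers of the labelled cell type were sparse. Of 8 osteoblast and bone matrix genes, SP7, SPP1 and IBSP were in neither table, and RUNX2, SPARC and BGLAP were in the second table only, at no more than 0.806 FPKM. ALPL, a phosphatase of mineralising cells, stood at 78.4 and 38.0 FPKM. COL1A1, a collagen of bone matrix, stood at 3.04 and 0.451 FPKM. The simple epithelial keratins KRT8 (1597 and 1410 FPKM) and KRT18 (1293 and 1196 FPKM) were far above every bone marker. The other markers of other cell types were low or not in the tables: of the list of 10, the epithelial adhesion gene EPCAM stood at 2.20 and 0.555 FPKM, the macrophage gene CD68 at 3.17 and 4.60 FPKM, and the endothelial gene CDH5 at 0.312 and 0.823 FPKM. The markers therefore do not by themselves show an osteoblast identity, and their part in the values below was not tested.

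RNA polymerase I makes the large ribosomal RNA precursor, polymerase II makes messenger RNAs and many noncoding RNAs, and polymerase III makes transfer RNAs, the small ribosomal RNA and other short RNAs. Each enzyme is built from its own large subunits and from small subunits that it shares with the others. Polymerase II starts with the help of TFIID, which holds the TATA-binding protein and the TAF proteins, and of TFIIA, TFIIB, TFIIE, TFIIF and TFIIH. Polymerase I uses the TAF-containing factor SL1, and polymerase III uses TFIIIA and TFIIIC.

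The genes of all these proteins are themselves read by polymerase II, from promoters on which its general factors assemble. RefSeq promoter windows (GRCh38.p14, 250 bases before to 50 after the start) were matched by symbol for 60 of the 85 gene names. Those of 4 genes are shown over the 100 bases before the start: that of POLR2A, the largest polymerase II subunit, that of GTF2B, which encodes TFIIB, and those of POLR3C and POLR3F, which had the highest ratio between the tables among all members and the lowest among those that are not pseudogenes. Capitals mark a TATA box (TATAAA), a GC box (GGGCGG) or a CCAAT box (CCAAT) on either strand.
POLR2A, chr17:7484266-7484365, plus strand: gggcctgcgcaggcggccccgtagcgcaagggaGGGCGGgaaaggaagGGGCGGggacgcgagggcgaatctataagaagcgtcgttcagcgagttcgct
GTF2B, chr1:88891568-88891667, minus strand: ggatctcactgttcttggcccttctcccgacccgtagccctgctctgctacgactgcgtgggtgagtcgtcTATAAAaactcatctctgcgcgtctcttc
POLR3C, chr1:145824100-145824199, plus strand: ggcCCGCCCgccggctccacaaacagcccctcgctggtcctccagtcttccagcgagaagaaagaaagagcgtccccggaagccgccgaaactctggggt
POLR3F, chr20:18467290-18467389, plus strand: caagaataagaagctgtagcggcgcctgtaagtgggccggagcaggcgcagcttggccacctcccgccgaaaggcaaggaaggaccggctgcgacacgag

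In these stretches POLR2A had 2 GC boxes, POLR3C had 1 GC box, GTF2B had 1 TATA box, and POLR3F had none of these motifs. Over the whole 300-base windows, searched on both strands with 1 window per gene, TATAAA was found in 6.67% of the 60 members, against 12.0% of all 27305 windows. The 4 members with it were GTF2B, GTF3C3, POLR2M and TAF4B. GGGCGG was found in 63.3% of members against 44.6% of all windows, and CCAAT in 31.7% against 35.7%. The median GC content was 61.8% in members and 58.3% in all windows. All windows include genes in neither table, so the members were not set against genes of like type or level. A match is a run of letters and was not tested as a binding site.

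A second set of sequences shows how alike some members are as copies. GTF2H2, a subunit of TFIIH, and GTF2H2C, its duplicate on the same chromosome, annotated on opposite strands, have windows that match at 268 of 270 bases once they are shifted by 30 bases. The 100 bases of each that precede both annotated starts are the same, so no base is in capitals.
GTF2H2, chr5:71067707-71067806, minus strand: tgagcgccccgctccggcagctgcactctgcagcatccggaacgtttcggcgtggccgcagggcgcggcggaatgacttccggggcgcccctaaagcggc
GTF2H2C, chr5:69560091-69560190, plus strand: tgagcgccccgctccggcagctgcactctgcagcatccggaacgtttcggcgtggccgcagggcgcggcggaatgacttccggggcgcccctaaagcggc
These bases lie outside the transcripts, and the transcripts themselves were not compared. How fragments were divided between copies was not stated in these sources, so values of single copies are uncertain.

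**Figure D1:**
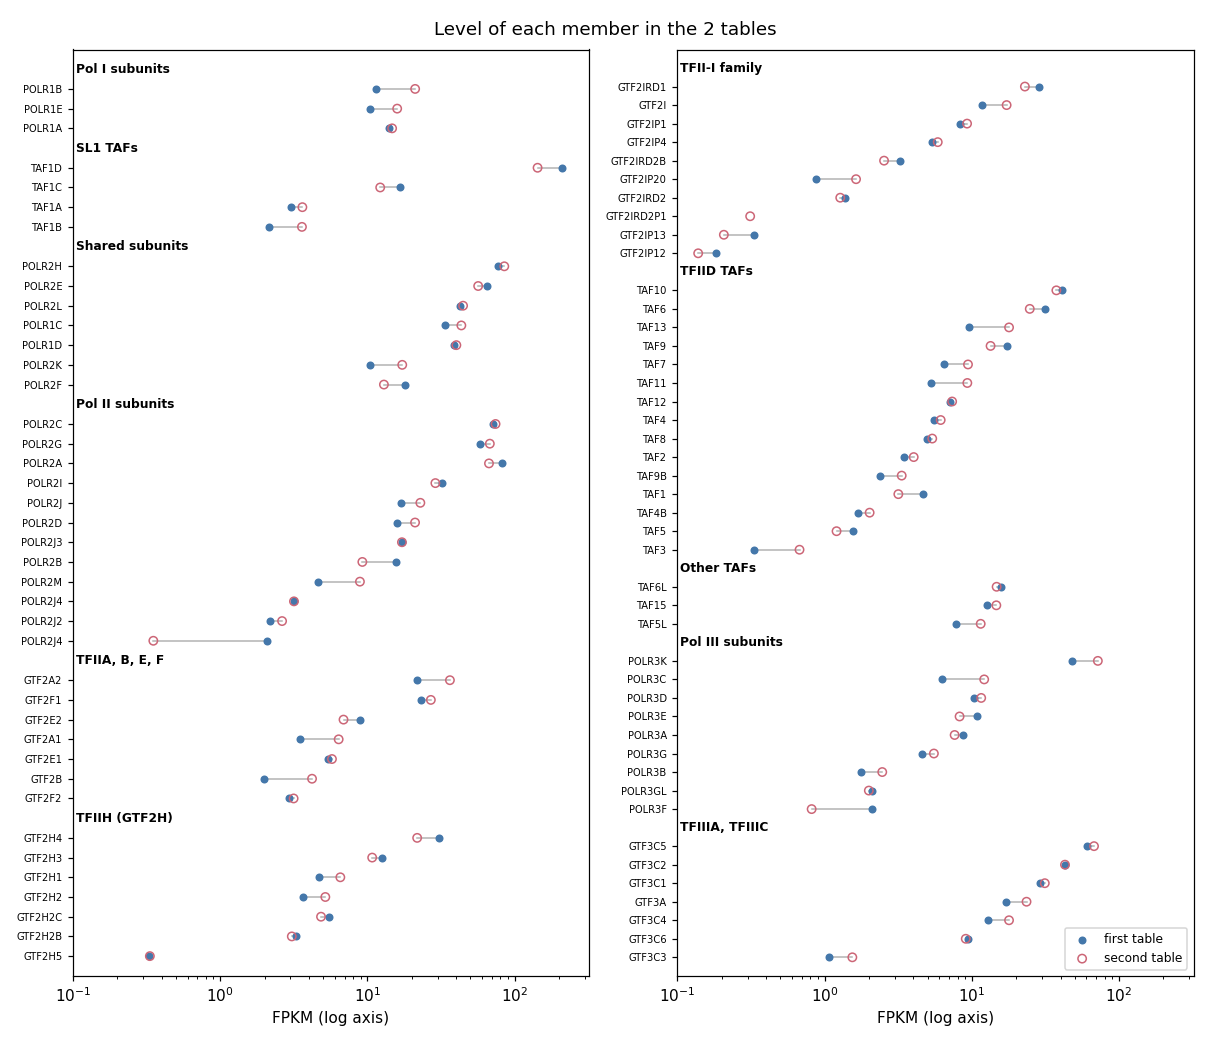
FPKM on a log axis of 84 of the 86 member identifiers, grouped by complex, with a filled point for the first table and an open point for the second, joined by a line. The 2 points of a gene lie close together beside the range of levels, and the longest line is that of 1 identifier of POLR2J4 (2.06 and 0.351 FPKM).

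The members had somewhat higher FPKM values than the typical listed gene. Whether these values are of input or precipitated RNA is not known. Their median level was 9.12 and 9.36 FPKM in the first and second table, against 4.62 and 5.15 FPKM for all 14270 genes in both tables. Over the 11416 genes with a mean of at least 1 FPKM the medians were closer to these, at 7.32 and 8.18 FPKM. The levels ran from 0.182 FPKM for the pseudogene GTF2IP12 to 209 FPKM for TAF1D in the first table, and from 0.138 to 143 FPKM for the same genes in the second. Across the 84 members, which are genes and not replicates, the levels on the log2(FPKM + 1) scale correlated between the tables with a Pearson r of 0.97 and a Spearman rho of 0.97. A level of at least 1 FPKM in each table was reached by 77 members.

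The difference between the tables was taken as the log2 ratio of second over first, with 1 FPKM added to each value, which understates the difference for low genes. In bulk RNA, fewer cells with a transcript and less of it per cell cannot be told apart. No member was at least 2-fold higher in the second table, where 2.04% of all genes in both tables were, and 1 identifier of POLR2J4 was at least 2-fold lower, where 1.68% of all genes were. At 1.5-fold, 9 members (10.7%) were higher, against 12.2% of all genes, and 3 (3.57%) were lower, against 7.83%. The members above 1.5-fold were thus about as frequent as in the whole table. By any amount, 54 of the 84 (64.3%) were higher, against 54.8% of all genes, and 30 (35.7%) were lower, against 45.2%. Without the added 1 FPKM, 2 members (2.38%) were at least 2-fold higher, against 8.89% of all genes, and 2 were at least 2-fold lower, against 9.59%. The median log2 ratio was 0.10 for the members and 0.05 for all genes. With every ratio centred on the all-gene median, 49 members (58.3%) were higher, against 50% of all genes by construction.

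**Figure D2:**
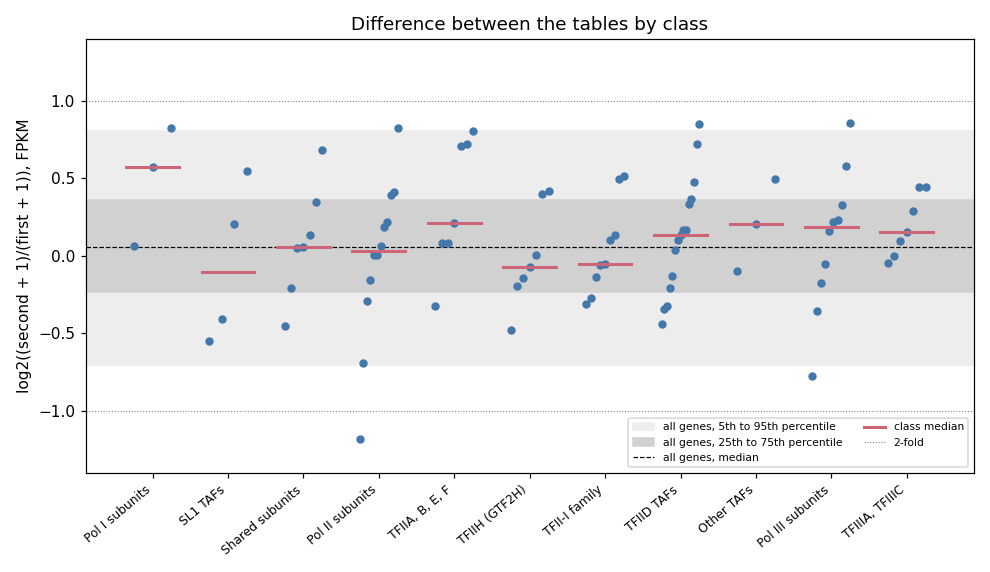
Log2 ratio of second over first table, log2((second + 1)/(first + 1)) in FPKM, for the 84 members in both tables, 1 point each, by class, with a red bar at the class median. Grey bands give the 5th to 95th and the 25th to 75th percentile of all 14270 genes (-0.70 to 0.81 and -0.23 to 0.36). One point, an identifier of POLR2J4, lies beyond the dotted 2-fold lines.

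Among the polymerase I genes, all 3 subunits matched by name were higher in the second table. Of the subunits listed under older symbols, given below, CD3EAP was slightly lower, with a log2 ratio of -0.06. ZNRD1 and TWISTNB were higher, with log2 ratios of 0.26 and 0.16. POLR1A, the largest subunit, stood at 14.0 and 14.7 FPKM, with a log2 ratio of 0.06. POLR1B, the second-largest subunit, which forms the active site with POLR1A, stood at 11.5 and 21.1 FPKM, with a log2 ratio of 0.82. POLR1E, which helps polymerase I to initiate, stood at 10.4 and 15.9 FPKM, with a log2 ratio of 0.57. POLR1A was thus the highest of the 3 in the first table and the lowest of them in the second. All 3 were alone at their locus. POLR1B lies on chromosome 2 (112541915 to 112577150, hg38).

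The TAF proteins of SL1, which recruits polymerase I to ribosomal DNA, did not share a direction. TAF1A stood at 3.003 and 3.61 FPKM and TAF1B at 2.14 and 3.59 FPKM, both higher in the second table. TAF1C stood at 16.5 and 12.2 FPKM and TAF1D at 209 and 143 FPKM, both lower, with log2 ratios of -0.41 and -0.55. TAF1D had the highest level of all members, above 98.2% and 97.6% of the genes of each table. It is a known host of small nucleolar RNAs in its introns. Its locus (chromosome 11, 93661639 to 93814695) was shared with 5 other identifiers, among them the small Cajal body RNA SCARNA9, at 86.3 and 62.5 FPKM, which was also lower, and the Mediator subunit MED17, at 10.6 and 14.9 FPKM, which was higher. How much of the TAF1D value came from the spliced transcript was not tested. Over the 7 polymerase I genes the median log2 ratio was 0.20, and 5 (71.4%) were higher, against 54.8% of all genes. The median was 0.038 when centred on genes of like gene density and 0.56 over the 4 genes alone at their locus.

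Of the subunits shared between the polymerases, POLR1C and POLR1D belong to polymerases I and III, and 5 POLR2 subunits belong to all 3 enzymes. These 7 had the highest median level of the groups by polymerase, at 38.8 and 43.4 FPKM. POLR1C, in which mutations cause Treacher Collins syndrome, stood at 33.9 and 43.4 FPKM, and POLR1D, its partner in the assembly of the enzyme, at 38.8 and 40.1 FPKM. POLR2H had the highest level of the shared subunits, at 77.3 and 84.9 FPKM, and POLR2E followed with 65.3 and 56.5 FPKM. POLR2L was nearly equal between the tables, at 42.8 and 44.6 FPKM. POLR2K, a small zinc-binding subunit, stood at 10.3 and 17.2 FPKM, with a log2 ratio of 0.68, and POLR2F at 18.1 and 12.9 FPKM, with a log2 ratio of -0.46. POLR2K and POLR2F thus moved in opposite directions although every polymerase holds both. The median log2 ratio of the 7 was 0.06, and it was 0.00 after centring on the all-gene median.

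Polymerase II had a large subunit pair of unequal level. POLR2A, whose carboxy-terminal repeats are phosphorylated through the transcription cycle, stood at 82.2 and 66.9 FPKM, with a log2 ratio of -0.29. POLR2B, the second-largest subunit and the partner of POLR2A in the active site, stood at 15.5 and 9.23 FPKM, with a log2 ratio of -0.69. Both large subunits were therefore lower in the second table. Of the large subunits of polymerase I, POLR1B was higher and POLR1A nearly equal. The log2 ratio of POLR1A was 0.01 after centring on the all-gene median. POLR2B shared its locus (chromosome 4, 56963370 to 57205510) with IGFBP7, at 55.6 and 40.9 FPKM, and NOA1, at 7.16 and 8.47 FPKM. POLR2A was alone at its locus.

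POLR2C, which with POLR2J seeds the assembly of the enzyme, stood at 71.0 and 74.1 FPKM, with a log2 ratio of 0.06. The stalk subunits POLR2G (58.1 and 67.7 FPKM) and POLR2D (15.8 and 21.0 FPKM) were both higher in the second table, with log2 ratios of 0.22 and 0.39. POLR2I, which supports proofreading by the enzyme, was lower at 32.3 and 28.9 FPKM. POLR2M, also called Gdown1, which blocks the binding of TFIIF to the polymerase, stood at 4.58 and 8.89 FPKM, with a log2 ratio of 0.83, and shared its locus with GCOM1 and MYZAP, each under 0.5 FPKM. Of the 12 identifiers of polymerase II subunits 8 (66.7%) were higher, against 54.8% of all genes, and 4 lower. Their median log2 ratio was 0.03, and it changed sign to -0.02 when centred on the all-gene median. The 12 include the copies POLR2J2 and POLR2J3 and both identifiers of the pseudogene POLR2J4. The median of this class without them was not taken.

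The POLR2J copies on chromosome 7 were listed separately. POLR2J stood at 17.0 and 22.9 FPKM, POLR2J3 at 17.1 and 17.1 FPKM, and POLR2J2 at 2.19 and 2.63 FPKM. One identifier of the pseudogene POLR2J4 stood at 2.06 and 0.351 FPKM, with a log2 ratio of -1.18, while its other identifier at the same locus stood at 3.15 and 3.17 FPKM. The sum of both was 5.22 and 3.52 FPKM, with a log2 ratio of -0.46. So the single member past 2-fold was no longer past it once its identifiers were added. The 5 identifiers of the copies summed to 41.4 and 46.1 FPKM, with a log2 ratio of 0.15.

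**Figure D3:**
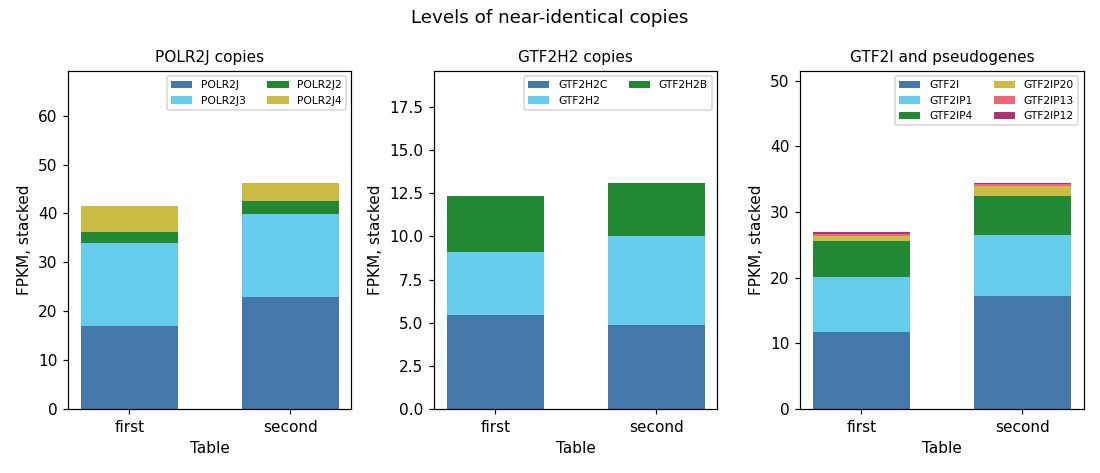
Stacked FPKM of near-identical copies in the first and second table, for the POLR2J copies (both POLR2J4 identifiers added), the GTF2H2 copies, and GTF2I with its pseudogenes. The sums are 41.4 and 46.1 FPKM, 12.4 and 13.1 FPKM, and 26.9 and 34.3 FPKM.

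Of the factors that assemble on polymerase II promoters before TFIIH, 6 of 7 (85.7%) were higher in the second table, against 54.8% of all genes. Their median log2 ratio was 0.21, and it was 0.24 when centred on genes of like gene density. With that centring GTF2E1 and GTF2F2 turned negative, at -0.119 and -0.115, while GTF2A1, GTF2A2, GTF2B and GTF2F1 stayed positive. TFIIA, which stabilises the TATA-binding protein on DNA, is encoded by GTF2A1, at 3.47 and 6.37 FPKM, and GTF2A2, at 21.8 and 36.3 FPKM. Their log2 ratios were nearly equal, at 0.72 and 0.71. GTF2B, the TFIIB that bridges TFIID and the polymerase, stood at 1.97 and 4.202 FPKM, with a log2 ratio of 0.81. Without the added 1 FPKM its fold was 2.13. These 3 genes were the ones of the 7 past 1.5-fold, and GTF2A1 and GTF2B were alone at their locus.

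TFIIE and TFIIF differed less. GTF2E1 stood at 5.37 and 5.74 FPKM, and GTF2E2, the other subunit of TFIIE, at 8.84 and 6.87 FPKM, with a log2 ratio of -0.32. The TFIIF subunits GTF2F1 (23.2 and 26.9 FPKM) and GTF2F2 (2.91 and 3.15 FPKM) were both slightly higher in the second table. The levels of the 2 subunits of TFIIF thus differed far more from each other than either differed between the tables.

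TFIIH opens the promoter DNA and phosphorylates POLR2A, and it also acts in nucleotide excision repair. Of its 7 GTF2H identifiers 3 (42.9%) were higher, against 54.8% of all genes, and 4 lower, with a median log2 ratio of -0.08. Among the lower ones were the GTF2H2 copies GTF2H2C and GTF2H2B, the latter a transcribed pseudogene per RefSeq. These copies were not left out of the counts or the median. Of the TFIIH subunits that the name rule leaves out, ERCC2, ERCC3, CDK7 and MNAT1 were higher in the second table. Their log2 ratios were 0.24, 0.46, 0.68 and 0.43, and that of CCNH was -0.03. The lower median thus holds for the 7 GTF2H identifiers and not for the whole complex. GTF2H4 was the highest of the 7, at 30.8 and 21.7 FPKM, with a log2 ratio of -0.48. It shared its locus with VARS2, at 19.1 and 11.6 FPKM, which was also lower. GTF2H5, the smallest subunit, which is mutated in a form of trichothiodystrophy, was the lowest of the complex in both tables, at 0.326 and 0.333 FPKM. GTF2H1 stood at 4.71 and 6.54 FPKM and GTF2H3 at 12.5 and 10.8 FPKM.

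The GTF2H2 copies, whose upstream sequences are shown above, did not share a direction. GTF2H2 stood at 3.62 and 5.17 FPKM, GTF2H2C at 5.46 and 4.84 FPKM, and GTF2H2B at 3.28 and 3.06 FPKM. Their sum was 12.4 and 13.1 FPKM, with a log2 ratio of 0.07, against single log2 ratios of 0.42, -0.15 and -0.08. Over the 14 GTF2A to GTF2H identifiers the median log2 ratio was 0.08, and it turned to -0.12 when each ratio was centred on genes of like gene density. The 14 include the copies GTF2H2B and GTF2H2C, whose density-centred ratios of -0.19 and -0.20 lay below that median. The centred median without these copies was not taken, so its sign holds only with them included.

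GTF2I encodes TFII-I, a signal-responsive factor named with the general factors, and with GTF2IRD1 it lies in the region deleted in Williams syndrome. GTF2I stood at 11.8 and 17.2 FPKM, with a log2 ratio of 0.51, and GTF2IRD1 at 28.7 and 22.9 FPKM, with a log2 ratio of -0.31. These neighbours thus differed in direction. GTF2I and its 5 pseudogenes in both tables summed to 26.9 and 34.3 FPKM, with a log2 ratio of 0.34. Of the pseudogenes, GTF2IP1 was the highest, at 8.35 and 9.28 FPKM. GTF2IRD2 (1.37 and 1.28 FPKM) and GTF2IRD2B (3.27 and 2.53 FPKM), which are near copies of each other, were both lower in the second table. GTF2IRD2P1 was in the second table at 0.312 FPKM.

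The TAF proteins of TFIID recognise core promoter elements and histone marks. Of the 15 with a ratio, 10 (66.7%) were higher in the second table, against 54.8% of all genes, and 5 lower. Their median log2 ratio was 0.13. TAF13, which pairs with TAF11 in a histone-like fold, stood at 9.49 and 17.9 FPKM, with a log2 ratio of 0.85, and TAF11 at 5.25 and 9.31 FPKM, with a log2 ratio of 0.72. These partners were the 2 members of TFIID past 1.5-fold. TAF13 was alone at its locus (chromosome 1, 109062486 to 109076002).

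TAF1, the largest TAF and the scaffold of TFIID, had the lowest ratio of the 15, at 4.66 and 3.17 FPKM, with a log2 ratio of -0.44. TAF10 had the highest level of the 15, at 41.1 and 37.5 FPKM. TAF6, which shared its locus with MCM7 (176 and 157 FPKM), stood at 31.3 and 24.7 FPKM. TAF7, which binds TAF1, was higher in the second table, at 6.50 and 9.41 FPKM. TAF3, which reads trimethylated lysine on histone H3 at active promoters, was the lowest in both tables, at 0.329 and 0.675 FPKM. Without the added 1 FPKM its fold was 2.05, from values that may rest on few fragments. TAF5 stood at 1.55 and 1.21 FPKM, and TAF4, TAF8, TAF12, TAF2 and TAF4B each had a ratio between 0.04 and 0.17.

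TAF9 and TAF9B, close paralogs, differed in direction. TAF9 stood at 17.3 and 13.4 FPKM and shared its locus with AK6 and RAD17, and TAF9B, alone at its locus, stood at 2.36 and 3.34 FPKM. Their sum was 19.6 and 16.7 FPKM, with a log2 ratio of -0.22. Of the TAF relatives outside TFIID, TAF5L and TAF6L belong to the SAGA coactivator, with 7.86 and 11.5 FPKM for the first and 15.8 and 14.7 FPKM for the other. TAF15, an RNA-binding protein, stood at 12.6 and 14.7 FPKM. Over all 53 polymerase II identifiers 33 (62.3%) were higher, against 54.8% of all genes, and 20 lower. Their median log2 ratio was 0.08, and it was -0.01 when centred on genes of like gene density. These identifiers include copies and pseudogenes. Without copies and pseudogenes the median was 0.15 before centring, and the density-centred median was not taken.

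Among the 10 polymerase III subunits, 6 (60%) were higher in the second table, against 54.8% of all genes, and 4 lower. Their median log2 ratio was 0.19. POLR3A, the largest subunit, stood at 8.77 and 7.64 FPKM, and POLR3B, which forms the active site with it, at 1.76 and 2.46 FPKM. Mutations of either cause a leukodystrophy. The log2 ratios were -0.18 and 0.33, so the pair did not share a direction.

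The extremes of the polymerase III subunits were 2 parts of 1 subcomplex. POLR3C, POLR3F and POLR3G form a trimer that helps to open the promoter. POLR3C stood at 6.26 and 12.1 FPKM, with a log2 ratio of 0.85, and POLR3F at 2.11 and 0.816 FPKM, with a log2 ratio of -0.77. POLR3F shared its locus with DZANK1, which was in the second table at 0.0605 FPKM, and without the added 1 FPKM its fold was 0.387. POLR3C was alone at its locus (chromosome 1, 145824088 to 145842505). POLR3G, abundant in stem and tumour cells, stood at 4.55 and 5.52 FPKM, and its paralog POLR3GL at 2.11 and 2.00 FPKM. POLR3G was thus the higher of these alternatives in both tables.

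POLR3K, the zinc-ribbon subunit needed for termination, had the highest level of the polymerase III subunits, at 47.6 and 71.7 FPKM, with a log2 ratio of 0.58. It shared its locus with SNRNP25, at 73.5 and 65.2 FPKM. POLR3D and POLR3E, which bind each other, stood at 10.3 and 11.6 FPKM and at 10.8 and 8.25 FPKM. The levels of the 10 subunits spanned 27.0-fold in the first table and 87.8-fold in the second.

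TFIIIA and TFIIIC bind the internal promoters of polymerase III genes. GTF3A, the zinc finger protein that recognises the 5S ribosomal RNA gene, stood at 17.0 and 23.5 FPKM, with a log2 ratio of 0.44. Of the 6 TFIIIC subunits GTF3C5 was the highest, at 60.6 and 67.5 FPKM, and GTF3C3 the lowest, at 1.08 and 1.54 FPKM. GTF3C4 had the highest log2 ratio of the 6, at 0.44, with 12.9 and 17.9 FPKM. GTF3C1, the largest subunit, stood at 29.2 and 31.3 FPKM, and GTF3C2 (43.0 and 42.9 FPKM) and GTF3C6 (9.40 and 9.09 FPKM) were nearly equal between the tables. Of the 17 polymerase III genes 11 (64.7%) were higher in the second table, against 54.8% of all genes, with a median log2 ratio of 0.16.

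The spread of levels within a complex differed between complexes. The 3 polymerase I subunits matched by name spanned 1.35-fold in the first table and 1.43-fold in the second. That narrow span holds for these 3 only. Polymerase I subunits listed under older symbols ranged from TWISTNB (1.34 and 1.62 FPKM) to ZNRD1 (40.2 and 48.2 FPKM). The TFIID TAFs spanned 125-fold and 55.5-fold, from TAF3 to TAF10. For TFIIIA and TFIIIC the span was 56.2-fold and 43.8-fold.

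The tables also hold partners of these enzymes that the name rule leaves out. For polymerase I, 4 of 6 (66.7%) were higher in the second table, against 54.8% of all genes, with a median log2 ratio of 0.21. Among the 6 are 3 polymerase I subunits listed under older symbols, ZNRD1 (40.2 and 48.2 FPKM), CD3EAP (13.3 and 12.7 FPKM) and TWISTNB (1.34 and 1.62 FPKM). RRN3, which makes polymerase I competent to initiate, stood at 9.27 and 17.0 FPKM, with a log2 ratio of 0.81 close to that of POLR1B, and UBTF, which binds ribosomal DNA, at 20.5 FPKM in each table. For polymerase II, 12 of 15 (80%) were higher, with the TFIIH kinase CDK7 at 5.70 and 9.74 FPKM. RPAP2, a phosphatase of the carboxy-terminal repeats, was lower at 3.57 and 1.58 FPKM, a fold of 0.442 without the added 1 FPKM. For polymerase III, 7 of 11 (63.6%) were higher. The TFIIIB subunit BRF1 stood at 13.1 and 9.82 FPKM and its relative BRF2 at 5.91 and 9.05 FPKM. TBP, which serves all 3 enzymes, stood at 4.80 and 6.68 FPKM.

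Mediator, which links activators to polymerase II, had 21 of 30 genes (70%) higher in the second table, against 54.8% of all genes. Their median log2 ratio was 0.24, against 0.05 for all genes. MED21 had the highest ratio, 0.998, at 4.87 and 10.7 FPKM, and MED16 the lowest, -0.62, at 19.2 and 12.2 FPKM. In the mitochondria, where a separate polymerase works, POLRMT stood at 88.8 and 65.7 FPKM and the factor TFAM at 2.96 and 6.86 FPKM. On the scale with 1 FPKM added, none of the 68 partner genes was at least 2-fold higher or lower, and 96.28% of all genes lay within 2-fold. Without it, 5 partners reached 2-fold in favour of the second table (MED4, MED11, MED21, MED28 and TFAM), against 8.89% of all genes, and 2 were at least 2-fold lower (MED7 and RPAP2), against 9.59%.

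The ratio also varied with gene density, counted as the listed genes whose start lay within 1 Mb. Across the 84 members, which are not independent and share both tables, the Spearman correlation of the log2 ratio with density was -0.23 and the Pearson correlation -0.24, against -0.25 and -0.24 over all genes. In the 10 density classes of all genes the median log2 ratio ran from 0.21 in the sparsest to -0.14 in the densest. Of the 22 members in the 3 sparsest classes 18 were higher in the second table, with a median log2 ratio of 0.26. Of the 43 in classes 4 to 7, counted from the sparsest, 26 were, with a median of 0.06. Of the 19 in the 3 densest classes 10 were, also with a median of 0.06. The middle and densest groups thus had nearly equal medians. Over all classes together 54.8% of all genes were higher, and their share within each group was not taken. With each ratio centred on its density class, 46 of 84 members (54.8%) were higher, against 50% of all genes by construction. POLR2A and GTF2H4 had 90 and 91 listed genes within 1 Mb, the most of all members, and GTF2A1 had 4. The part of gene density in the ratios was not tested.

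**Figure D4:**
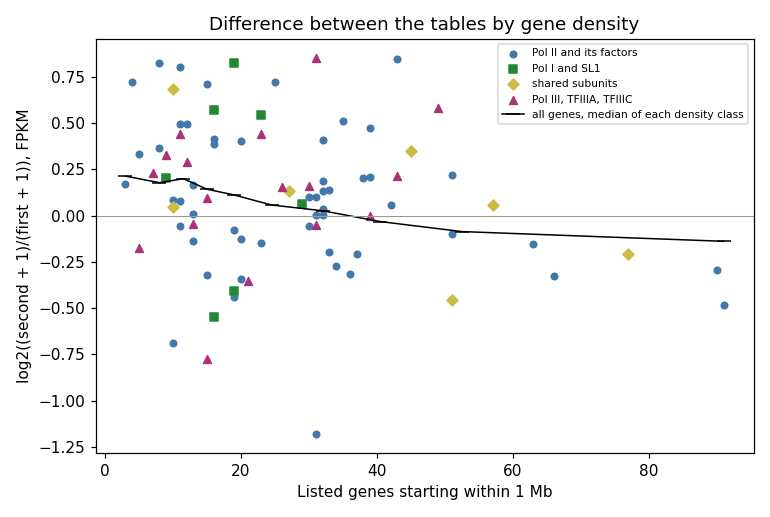
Log2 ratio of second over first table, log2((second + 1)/(first + 1)) in FPKM, for the 84 members against gene density (listed genes with a start within 1 Mb), with symbols by polymerase. The black line joins the medians of all 14270 genes in 10 density classes, from 0.21 to -0.14, each drawn at the middle of its class, and the members scatter widely on both sides of it.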

How the data were processed

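The deposited values were 2 tables with a gene identifier, gene name, locus and FPKM column, per the file headers. The authors' FPKM scales fragments by transcript length and library total (tool: not given in the sources used here). Per the submitters' processing notes, hg38, MACS 1.4.2, BWA 0.7.13 and cutadapt 1.12 were used, without roles. Locus strings are often intervals merged over several genes, and 40 of the 86 members shared theirs. Printed locus starts have 1 added, since 1824 unshared loci then began at the RefSeq start, and 148 did as deposited.

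The members and lists were chosen with earlier results of these data known. Ratios used a pseudocount of 1 FPKM and no level filter, and 2-fold counted as a call. Named were members past 2-fold, the extremes of level and ratio in each class, the largest subunits, paralogs, and members in 1 table. Other members were added as examples, and the 1.5-fold count was added, after their values were seen. One member is not reported here by name. Gene density had 10 classes of equal size. The ratio and call rule was run on simulated data, with changes past the call and in genes of higher level only. That run checks the code and says nothing about genes of low level or the noise of these data. Alternatives were a pseudocount of 0.1 FPKM, no pseudocount, a mean of at least 1 FPKM, centring, gene density, genes alone at their locus, and copies removed. Of these, no pseudocount, copies removed and summed POLR2J4 identifiers were chosen after seeing the data. Python 3.11.15, pandas 2.3.3, numpy 2.4.6 and matplotlib 3.10.9 were used.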

Additional observations from a re-analysis of the deposited data

How the results depend on the processing

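No paired analysis was possible because neither table names a sample, so no replicate could be left out either. Medians are called moved past 0.1 on the log2 scale, and counts past 1.5 times. The polymerase I median of 0.20 became 0.038 when centred on gene density classes and 0.56 for the 4 genes alone at their locus. The medians of all members, the shared subunits, polymerase II and polymerase III moved by no more than 0.1 under every setting run. Medians of the smaller classes were followed only under centring. Some of them moved further when centred on gene density classes. The median of the 14 GTF2A to GTF2H identifiers went from 0.08 to -0.12, and that of the TFIID TAFs from 0.13 to 0.01. The 14 include the copies GTF2H2B and GTF2H2C, and the centred median without these copies was not taken. The count of members at least 2-fold higher, 0, became 1 with a pseudocount of 0.1 FPKM (GTF2B) and 2 with none (GTF2B and TAF3). The count at least 2-fold lower, 1, became 2 with a pseudocount of 0.1 FPKM and with none (POLR2J4 and POLR3F), and 0 for members alone at their locus, without copies and pseudogenes, and with the POLR2J4 identifiers summed. The count at least 1.5-fold higher, 9, became 14 with a pseudocount of 0.1 FPKM and with none, and that at least 1.5-fold lower, 3, became 0 for members alone at their locus. The members higher by any amount, 54, became 32 of the 45 alone at their locus, where fewer genes entered by construction. No called value changed sign. Ratios grow in size as the pseudocount shrinks, by construction, and the cause of the polymerase I shifts was not tested. Values under 1 FPKM, found in at least 1 table for 7 of the 84 members, may rest on few fragments.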
